A study of Mus musculus with 12 samples.

Results

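Cells of an immortalized mouse macrophage line (IMM) that had been stimulated with lipopolysaccharide (LPS) for 60 min were compared with the same cells at 0 min. The samples were chosen by their titles, 3 at 60 min and 3 at 0 min, which is 6 of the 12 samples of a time course with 4 time points. LPS, a component of the outer membrane of Gram-negative bacteria, was given at 100 ng/mL, and the study's design names 0 min as the control. All groups were grown in DMEM with heat-inactivated serum and HEPES, and total RNA was taken with a miRNeasy kit. How the line was immortalized, and whether it is 1 clone, is not given in the labels. The design text calls the 3 samples of a time point biological replicates. What they do not share is not described further. The p values thus rest on the spread between samples within time points, which the fit to the deposited signal pooled over all tested miRNAs.

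MiRNAs are short RNAs that guide Argonaute proteins to messenger RNAs and lower the output of their targets. Target choice rests mostly on the seed, the bases near the 5′ end, so miRNAs with the same seed form a family. A precursor hairpin can give a mature miRNA from its 5′ arm (5p) or its 3′ arm (3p), and usually one of them dominates. LPS binds Toll-like receptor 4 and activates NF-kB. In macrophages this pathway is known to raise transcription of the precursors of miR-155, which promotes inflammation, and of miR-146a, which dampens the receptor's own signalling.

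The sequences below are the mature miRNAs that the results turn on, with the seed (bases 2 to 8) in capitals, from RefSeq on GRCm38.p6. The table names many miRNAs without an arm, and the arm shown is the one that carried that name in older miRBase releases. Of the 166 probes tested, 114 matched a RefSeq sequence and 52 did not. The first 8 are miRNAs that rose on both scales described below.
miR-376a-3p: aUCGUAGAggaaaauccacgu
miR-760-3p: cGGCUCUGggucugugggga
miR-125a-3p: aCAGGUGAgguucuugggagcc
miR-3099-3p: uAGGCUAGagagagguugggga
miR-691: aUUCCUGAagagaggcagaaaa
miR-142a-3p: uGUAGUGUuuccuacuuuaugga
miR-1902: aGAGGUGCaguaggcaugacuu
miR-21a-5p: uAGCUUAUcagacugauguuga
No seed is shared within these 8. The next 5 fell relative to the most abundant miRNAs.
miR-22-3p: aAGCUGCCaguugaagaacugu
miR-2137: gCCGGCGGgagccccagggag
miR-139-5p: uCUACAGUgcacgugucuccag
miR-30c-5p: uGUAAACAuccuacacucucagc
miR-27a-3p: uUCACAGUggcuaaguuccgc
The last 11 are members of seed families that the panel measured several times, shown so that members with unlike changes can be set beside each other. Of the let-7 family, let-7b fell relative to the most abundant miRNAs and let-7a did not pass.
let-7a-5p: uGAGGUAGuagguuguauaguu
let-7b-5p: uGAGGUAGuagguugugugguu
let-7d-5p: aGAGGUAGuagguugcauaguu
miR-29a-3p: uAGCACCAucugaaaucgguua
miR-29c-3p: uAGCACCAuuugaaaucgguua
miR-29b-3p: uAGCACCAuuugaaaucaguguu
miR-15b-5p: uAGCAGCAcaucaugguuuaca
miR-16-5p: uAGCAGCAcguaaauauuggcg
miR-17-5p: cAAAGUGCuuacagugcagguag
miR-20a-5p: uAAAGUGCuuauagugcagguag
miR-106b-5p: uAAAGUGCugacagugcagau

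The assay was the NanoString nCounter mouse miRNA panel, in which each miRNA is ligated to a tag and single molecules are counted by hybridization. The deposited signal behaves as counts times a factor for each sample, set by 4 housekeeping mRNAs, and is floored at 20. The 6 samples held between 114754 and 218282 counts over mouse miRNAs. The 0 min replicate 1 stood apart. It had the fewest counts, and 1 count was worth 2.26 signal units there against 0.849 to 1.31 in the other 5 samples. A floored entry in it can therefore hide a signal of up to 45.3. Its summed miRNA signal, 259860, was the highest of the 6, beside 128061 and 149873 in the other 0 min samples.

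Each comparison is given on 2 scales. For the deposited scale, log2 of the signal plus 1 was compared as deposited. For the top-100 scale, each sample was first divided by the geometric mean of its 100 most abundant mouse miRNAs, so a change there is relative to those miRNAs. The sample factors divided out were 1.09, 0.648 and 0.597 at 0 min and 1.16, 1.26 and 0.769 at 60 min, and their ranges overlapped. Their mean log2 difference of 0.47 had an exact permutation p of 0.2, two-sided, where 3 against 3 samples cannot go below 0.1. The 3 ligation controls, added RNAs that report on the tagging step, differed in the same direction by 0.82 (exact p = 0.2). Tests were made with limma on all 12 samples, adjusted by the Benjamini-Hochberg method over 166 miRNAs, with a threshold of 0.05. Log2 changes are given as 60 min minus 0 min ± SE, and sample values in the order of replicates 1, 2 and 3. In these bulk samples a smaller share of cells with a miRNA and less of it per cell cannot be told apart.

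At 60 min, 18 miRNAs rose on the deposited scale (10.8% of those tested) and 0 fell (0%), with 39 at an unadjusted p under 0.05, all of them higher. On the top-100 scale 19 rose (11.4%) and 33 fell (19.9%), with 71 at an unadjusted p under 0.05, 31 higher and 40 lower. MiRNAs were tested if their mean over all 12 samples exceeded a filter. Of the rises, 7 of 18 deposited and 4 of 19 top-100 calls had a 0 min mean under this filter. Of the 33 falls, 0 did. These rises were tested only through later time points, where they were higher, and the counts and shares of rises include them. The rises on both scales numbered 13, and 5 passed on the deposited scale alone and 6 on the top-100 scale alone. By fitted change the largest rises were those of miR-376a, miR-760, miR-3099 and miR-125a-3p, while the largest relative falls were those of miR-2137 and miR-22. The 0 min values of miR-3099 and miR-125a-3p were at the floor or near background, so their rank is not fixed. With 1 common floor for all samples their deposited changes were 1.22 and 1.51. The median change of all tested miRNAs was 0.43 on the deposited scale, where 81.3% of changes were positive, and -0.03 on the top-100 scale, where 45.8% were. The choice of scale thus moved every change by about the same amount and decided whether falls were called. Scaled to the ligation controls, 7 rose and 62 fell, and scaled to the summed miRNA signal, 30 rose and 16 fell. Standard errors on the deposited scale were 0.38 for every miRNA, since the fit estimated 1 common variance. On the top-100 scale they ran from 0.11 to 0.44.

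**Figure D1:**
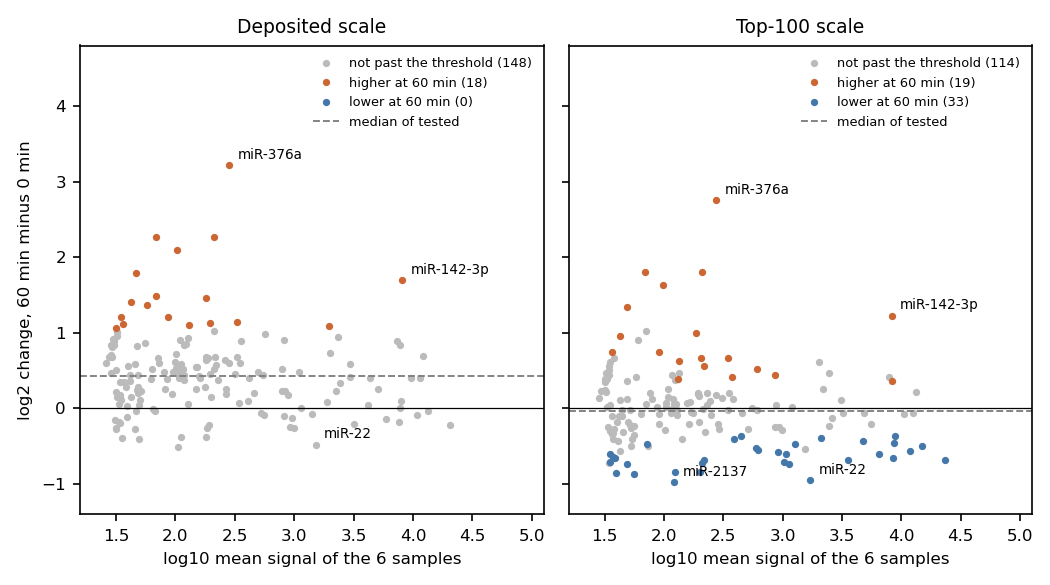
Log2 change at 60 min against 0 min (y axis) by log10 of the mean signal over the 6 samples (x axis), on the deposited scale (left) and the top-100 scale (right), 1 point per tested miRNA (166). Orange and blue points passed as higher and lower, and the dashed line is the median, 0.43 on the left and -0.03 on the right, so the whole cloud sits lower on the right.

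MiR-376a comes from the imprinted Dlk1-Dio3 region, a large miRNA cluster that is silent in many adult tissues, and its mature form lies at chr12:109723824-109723844 on the plus strand. Its deposited signal was 52.1, 33.8 and 73.9 at 0 min and 429, 797 and 324 at 60 min. Every 60 min sample lay above every 0 min sample by a wide margin. These signals rest on 23, 39 and 87 counts at 0 min and 411, 606 and 366 counts at 60 min. The highest negative controls at 0 min had 32, 26 and 28 counts, so 0 min replicate 1 lay within background. The rise was 3.22 ± 0.38 on the deposited scale (limma adjusted p = 7.25e-15) and 2.75 ± 0.44 on the top-100 scale (adjusted p = 0.00228). It kept passing on the top-100 scale under each of the 25 alternatives on that scale, with changes of 2.48 to 3.18. Its deposited change missed the threshold only where no filter was applied (adjusted p = 0.0522).

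MiR-142-3p is the one abundant miRNA among the largest rises. MiR-142 is made in blood-forming lineages and needed for several of them, and this arm lies at chr11:87756903-87756925 on the plus strand. Its signal was 5836, 3486 and 2491 at 0 min and 13884, 14319 and 8673 at 60 min, and the groups did not overlap. The rise was 1.70 ± 0.38 on the deposited scale (adjusted p = 0.000216) and 1.22 ± 0.30 on the top-100 scale (adjusted p = 0.0107). Scaled to the top 100, the 60 min samples lay close together, at 11972, 11382 and 11283, against 5370.1, 5378 and 4173 at 0 min. As a share of the summed miRNA signal it went from 2.17% ± 0.201 to 5.71% ± 0.372 (SD, n = 3).

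MiR-125a-3p is the minor arm of the miR-125a precursor, which lies beside those of miR-99b and let-7e on chromosome 17. Its mature form is at chr17:17830855-17830876 on the plus strand. Its signal was 70.2, 23.4 and 25.5 at 0 min and 186, 235 and 79.6 at 60 min, without overlap. These rest on 31, 27 and 30 counts at 0 min, where the highest negative controls had 32, 26 and 28. At 60 min there were 178, 179 and 90 counts. The 0 min values thus lay near background, and the size of the rise depends on them. The rise was 2.09 ± 0.38 on the deposited scale (adjusted p = 1.55e-06) and 1.63 ± 0.32 on the top-100 scale (adjusted p = 0.00369). With 1 common floor for all samples its deposited call ended (1.51, limma adjusted p = 0.156), in a fit that no longer shared 1 variance over all miRNAs. Its top-100 call held there (1.57, adjusted p = 0.00831). MiR-760, at chr3:122293615-122293634 on the minus strand, had 120.0, 33.8 and 76.4 at 0 min and 275, 492 and 267 at 60 min. Its groups were far apart. It rose by 2.27 ± 0.38 and 1.80 ± 0.36 on the deposited and top-100 scales (adjusted p = 1.55e-07 and 0.00369). MiR-1902, which lies within Hipk3 at chr2:104428871-104428892 on the minus strand, had 120.0, 84.8 and 76.4 at 0 min and 288, 331 and 174 at 60 min. Its groups did not overlap, and it rose by 1.46 ± 0.38 and 0.99 ± 0.16 (adjusted p = 0.00236 and 0.00228).

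MiR-3099 and miR-691 rose out of the floor, so the size of their change is not fixed by the data. MiR-3099, within Usp29 at chr7:6803638-6803659 on the plus strand, had 20, 20 and 24.6 at 0 min, with replicates 1 and 2 at the floor, and 80.4, 187 and 80.4 at 60 min. MiR-691, within Robo2 at chr16:74342005-74342026 on the minus strand, was floored in each 0 min sample and had 65.8, 96 and 58.3 at 60 min. The 60 min values of both lay above the 45.3 that the floor of 0 min replicate 1 can hide. Their 0 min means lay under the filter of 30.5 on the mean of all 12 samples, so both were tested only through the later time points where they were higher, as were miR-701, miR-3471, miR-1970, miR-2135 and miR-2183 of the 18 deposited rises. Both passed on both scales, at adjusted p of 1.55e-07 and 7.8e-05 on the deposited scale and 0.00745 and 0.00973 on the top-100 scale. Set against the highest mean that the floor can hide at 0 min, 28.4, the mean of miR-691 was at least 2.58-fold higher at 60 min. With 1 common floor for all samples both lost their call on the deposited scale (1.22, adjusted p = 0.133, and 0.65, adjusted p = 0.217) and passed on the top-100 scale (1.28 and 0.71). That deposited fit no longer shared 1 variance over all miRNAs.

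**Figure D2:**
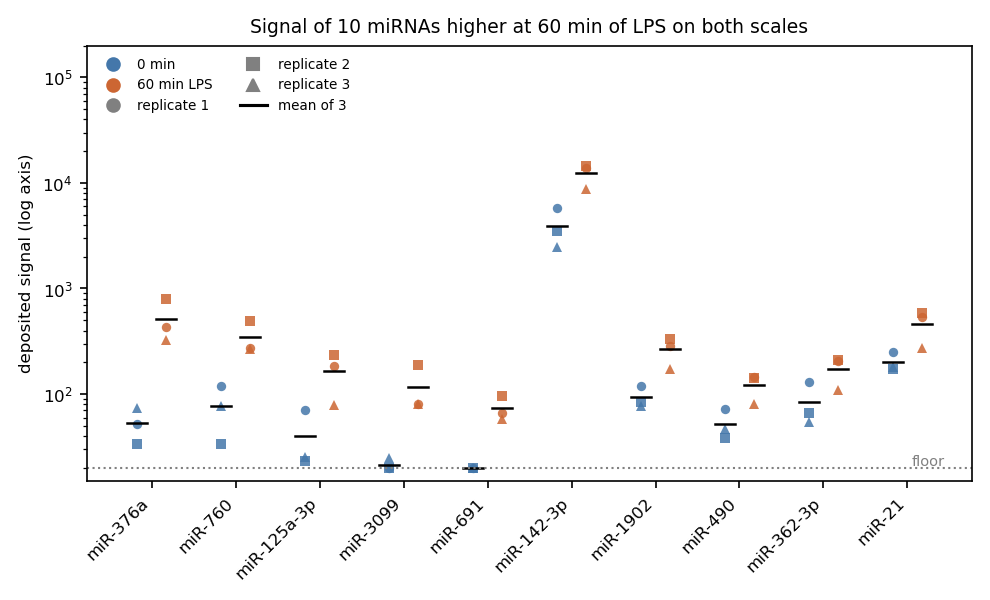
Deposited signal (log axis) of 10 miRNAs that rose on both scales, with the 3 samples of 0 min in blue and the 3 of 60 min in orange. The black bars are means, and the dotted line is the floor of 20. The groups do not overlap for 9 of the 10, and for miR-362-3p the lowest 60 min sample, 109, lies below 0 min replicate 1, 131.

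The smaller rises on both scales came from miRNAs of moderate signal. MiR-21, known to target the inflammation regulator Pdcd4 in macrophages, had 251, 173 and 181 at 0 min and 535, 585 and 270.5 at 60 min, without overlap. It rose by 1.14 ± 0.38 and 0.67 ± 0.18 (adjusted p = 0.0337 and 0.0155). MiR-490, at chr6:36421800-36421821 on the plus strand within Chrm2, had 72.5, 38.1 and 46.7 and 144, 141 and 81.3 and rose by 0.75 ± 0.15 on the top-100 scale. MiR-136, another miRNA of the Dlk1-Dio3 region, rose by 0.66 ± 0.21 there, with 154, 92.6 and 119 at 0 min and 267, 335 and 201 at 60 min. The groups of both stood apart. MiR-362-3p had 131, 65.8 and 54.3 and 204, 212 and 109, so 60 min replicate 3 lay below 0 min replicate 1 on the deposited scale. Scaled to the top 100, where its groups did not overlap, it rose by 0.63 ± 0.16.

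Of the 18 deposited calls, 12 ended when some single sample was left out, and those of miR-1970, miR-2183, miR-29b and miR-362-3p ended in at least 6 of the 12 such fits, as did those of miR-21 and miR-136. The calls of miR-21 and miR-136 ended when 0 min replicate 2 or 3, 30 min replicate 1 or 3, or 60 min replicate 1 or 2 was left out, with lowest changes of 0.93 for miR-21 and 0.95 for miR-136. The deposited call of miR-490 ended in 4 and that of miR-362-3p in 7 of 12 fits that left out 1 sample each, with lowest changes of 1.01 and 0.84, and both held in all 12 on the top-100 scale. MiR-1902 lost its deposited call without 60 min replicate 2 (1.28, adjusted p = 0.0564). The top-100 call of miR-21 ended without 0 min replicate 1 (0.57), 60 min replicate 1 (0.61) or 60 min replicate 2 (0.60). That of miR-136 ended without 0 min replicate 1 or 2 or any of the 3 samples at 60 min, with changes of 0.58 to 0.72. MiR-376a, miR-760, miR-125a-3p and miR-142-3p passed on both scales without any one of the 12 samples. So did miR-3099 and miR-691, but these fits kept the filter on all 12 samples, which both met only through the later time points.

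MiR-701 and miR-3471 also passed on both scales, and each 0 min sample of both was floored. At 60 min they had 49.1, 64.4 and 33.6 and 38.6, 119.6 and 35.4. Their means were at least 1.72-fold and 2.27-fold higher than the floor allows at 0 min, and of each the lowest 60 min sample lay below the 45.3 that 0 min replicate 1 can hide. Their top-100 calls held in only 3 of 12 fits that left out 1 sample each. With a common floor both calls ended on both scales, at top-100 changes of 0.13 for miR-701 (adjusted p = 0.305) and 0.44 for miR-3471 (adjusted p = 0.268). The 5 miRNAs that passed on the deposited scale alone were miR-29b, miR-32, miR-1970, miR-2135 and miR-2183. Of these 5 all but miR-29b had a floored sample at 0 min, as had 8 of the 18 deposited rises. MiR-29b had 1925, 1175 and 704 at 0 min and 3303, 3277 and 1413 at 60 min, with overlapping groups. MiR-32 had 61.1, 32.9 and 20 at 0 min and 118, 112 and 70.7 at 60 min, a rise of 1.48 ± 0.38 on the deposited scale beside 1.02 ± 0.39 and an adjusted p of 0.0619 on the top-100 scale. MiR-1970 was floored throughout at 0 min and had 36.5, 51.3 and 42.4 at 60 min. MiR-2135 had 20, 29.4 and 41.6 and 70, 141 and 45.1, and miR-2183 had 20, 20 and 23.8 and 50.1, 76.2 and 27.4. Of the 18 deposited rises, 16 had every 60 min sample above every 0 min sample, an order that 18.1% of all tested miRNAs showed on that scale.

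The 6 miRNAs that rose on the top-100 scale alone were miR-103, miR-106b, miR-16, miR-24, miR-29c and miR-1937c. MiR-103, which lies in genes of pantothenate kinase and is linked to insulin sensitivity, had 444, 478 and 580.3 at 0 min and 673, 748 and 719.8 at 60 min on the top-100 scale and rose by 0.52 ± 0.16 (adjusted p = 0.0302). MiR-106b, within the replication gene Mcm7, had 646, 808 and 769 and 999, 1015 and 984 and rose by 0.44 ± 0.12. Both had deposited changes near 1, 0.99 and 0.91, with adjusted p of 0.071 and 0.101, and groups that did not overlap. MiR-16, miR-24 and miR-29c rose by 0.36 ± 0.13, 0.38 ± 0.13 and 0.42 ± 0.13. MiR-16 had 6570.4, 7407 and 8174 at 0 min and 8961, 9422 and 9942 at 60 min on that scale, with groups that did not overlap. MiR-1937c, with 165, 178 and 181 and 252, 335 and 199, rose by 0.55 ± 0.18. Leaving out 0 min replicate 1 ended all 6 of these calls, with changes of 0.28 to 0.51.

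The 33 relative falls were changes against the 100 most abundant miRNAs, and on the deposited scale none of them passed. There 26 of the 33 had negative and 7 positive changes, from -0.51 to 0.10, beside the median of 0.43. In each of the 33 the highest deposited signal of the 6 samples was that of 0 min replicate 1. Scaled to the top 100, 32 of the 33 had every 60 min sample below every 0 min sample, an order shown by 24.1% of all tested miRNAs on that scale, and on the deposited scale 0 of the 33 had it. Without 0 min replicate 1, 17 of the 33 passed as lower on the top-100 scale. Among the 29 tested miRNAs with a mean signal over 1000, 12 fell and 2 rose on the top-100 scale, where 19.9% and 11.4% of all tested did.

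MiR-22, a widely made miRNA with its own host gene Mir22hg, lies at chr11:75463772-75463793 on the plus strand. Its deposited signal was 3007, 1333 and 1141 at 0 min and 1337, 1253 and 1002 at 60 min. On that scale 0 min replicate 1 was far above the rest, 60 min replicates 1 and 2 lay close to 0 min replicate 2, and the groups overlapped. Its top-100 values were 2767, 2056 and 1911 at 0 min and 1153, 996 and 1304 at 60 min, with no overlap. It fell by 0.95 ± 0.15 there (adjusted p = 0.00228), beside -0.48 ± 0.38 on the deposited scale (adjusted p = 0.449). MiR-2137, at chrX:72992113-72992133 on the plus strand within Zfp185, had deposited signals of 190.2, 88.3 and 104 and 81.5, 94.7 and 77.8. Its top-100 values were 175, 136 and 174 at 0 min and 70.2, 75.2 and 101 at 60 min, and it changed by -0.97 ± 0.18 (adjusted p = 0.00369). These were the 2 falls that passed in every top-100 fit that tested them, including those without 0 min replicate 1.

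**Figure D3:**
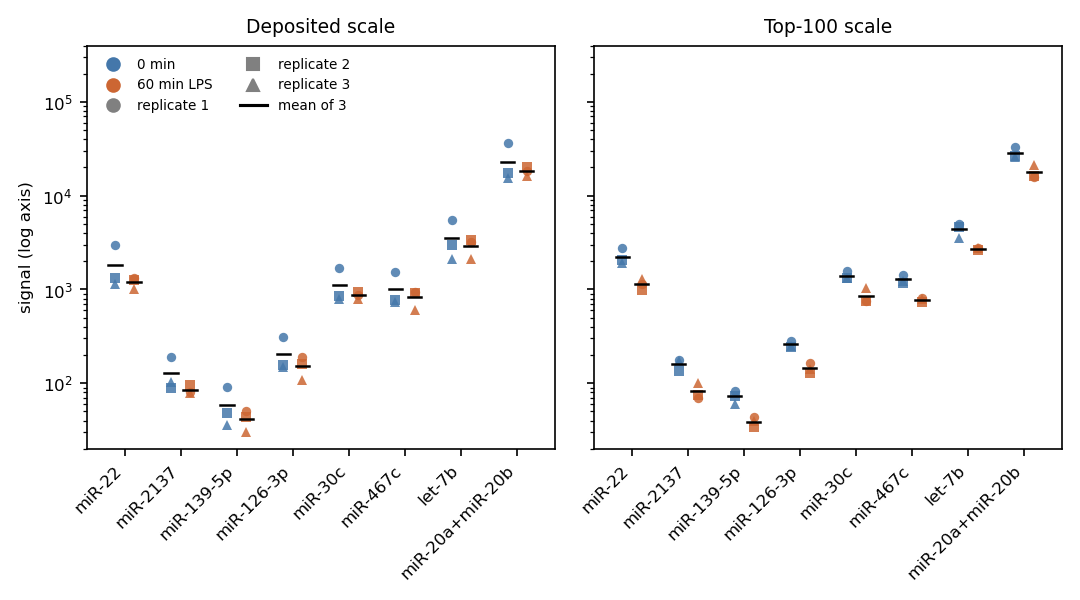
Signal (log axis) of 8 miRNAs lower at 60 min on the top-100 scale, on the deposited scale (left) and the top-100 scale (right), with 0 min in blue, 60 min in orange and means as black bars. On the left 0 min replicate 1 (blue circle) is the highest sample of each miRNA and the groups overlap, while on the right they do not.

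Further falls that held without any one of the 12 samples included miR-139-5p, miR-126-3p, miR-30c, miR-2141 and miR-467c. MiR-139-5p, within the phosphodiesterase gene Pde2a at chr7:101475382-101475403 on the plus strand, had 83.4, 73.4 and 59.7 at 0 min and 43.2, 34.5 and 39.1 at 60 min on the top-100 scale (-0.87 ± 0.17, adjusted p = 0.00369). Its deposited signals were 90.6, 47.6 and 35.7 and 50.1, 43.4 and 30.1. The 2 groups thus stood apart on one scale and overlapped on the other. Its 60 min counts were 48, 33 and 34, near the highest negative controls of 36, 30 and 33 in replicates 2 and 3. With a common floor for all samples its top-100 call held by limma (-0.75, adjusted p = 0.00337). MiR-30c had 1567, 1318 and 1311 and 756, 751 and 1033 on the top-100 scale (-0.74 ± 0.15) and 1703, 854 and 783 and 876, 945 and 794 on the deposited scale. Its groups overlapped as deposited, where 0 min replicate 1 alone stood out. MiR-126-3p, best known from endothelial cells, had top-100 values of 285, 242 and 252 at 0 min and 165, 127 and 140.3 at 60 min (-0.85 ± 0.16) beside deposited signals of 310.2, 157 and 150.3 and 191, 160.4 and 108. MiR-2141 had top-100 values of 258, 276 and 250.3 and 166, 145 and 163 (-0.72 ± 0.13). MiR-467c, of the Sfmbt2 cluster, had 1421, 1176 and 1246 and 811, 733 and 789 (-0.72 ± 0.13). The groups of these 3 did not overlap on that scale. With no filter, where 566 miRNAs were tested, these 5 did not pass.

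The most abundant probe, which reads both miR-20a and miR-20b of the growth-promoting miR-17-92 family, was among the falls. On the top-100 scale it had 33359, 26825 and 25681 at 0 min and 15944, 16163 and 21333 at 60 min (-0.69 ± 0.16, adjusted p = 0.00962). Its deposited signals were 36250.0, 17388 and 15331 and 18491, 20333 and 16399, so that 60 min replicates 1 and 2 were above 0 min replicates 2 and 3. Among the other 4 most abundant probes over all 12 samples, let-7g fell by 0.50 ± 0.13, while let-7a (-0.07), the joint probe for miR-17 and miR-106a (-0.07) and miR-720 (0.22) did not pass. MiR-1944, described next, was above that joint probe over the 6 samples compared. MiR-720 is an entry regarded as a fragment of a transfer RNA.

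The other falls of largest size were those of miR-326 (-0.85), miR-1187 (-0.74), miR-872 (-0.68), let-7b (-0.68), miR-770-3p (-0.66), let-7d (-0.65) and miR-200c (-0.64). MiR-326 had deposited signals of 226, 103 and 69.6 at 0 min and 104, 82.8 and 84.9 at 60 min, and miR-872 had 339.7, 164 and 137 and 184, 158 and 167. In both, only 0 min replicate 1 stood well above the other samples. MiR-1944, with top-100 values of 15637, 13975 and 12312 and 7316, 12118 and 9441, also fell (-0.56 ± 0.17, adjusted p = 0.0303) and was chosen after its values were seen, as the most abundant fall beside let-7g and the miR-20a+miR-20b probe. MiR-1187, miR-770-3p and miR-200c had signals between 22.1 and 97.4 on the deposited scale, close to the floor. Their calls ended with a common floor for all samples. MiR-670 and miR-2140 (-0.85 and -0.71) each had a floored sample and are named outside the naming rule. In a floored sample the division by the sample factor sets the value, so the size of these 2 falls is not fixed by the data.

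MiRNAs known to be induced by LPS were mostly not measurable at this time. Of 9 on the panel, 4 were floored in each of the 6 samples, namely miR-9, miR-147, miR-155 and miR-212. MiR-187 and miR-146b were above the floor in 1 and 2 samples, all at 60 min. MiR-146b had 20, 31.6 and 22.1 at 60 min, and miR-187 had 27.6 in replicate 2 alone. At this depth a fall or a small change of those 6 was not detectable. The floor can hide at most 20.9, 26.3 and 20 at 60 min, and none of the 6 reached the signals that miR-691 had there. MiR-146a, a brake on Toll-like receptor signalling through Irak1 and Traf6, had 3439.8, 2365 and 1849 at 0 min and 3824, 3904 and 2376 at 60 min, with overlapping groups. It did not pass on either scale (0.41 ± 0.38, adjusted p = 0.511, and -0.06 ± 0.12, adjusted p = 0.778). MiR-132, a target gene of the factor Creb, had 90.6, 47.6 and 57.7 and 63.7, 72.3 and 53 on the deposited scale and 83.4, 73.4 and 96.7 and 54.9, 57.5 and 69 on the top-100 scale. It fell on the top-100 scale alone (-0.47 ± 0.16, adjusted p = 0.0374), and this call ended under 14 of 25 alternatives on that scale, the fit without 0 min replicate 1 among them. With miR-21, the 3 tested members thus held 1 rise and 1 fall on the top-100 scale, with a median change of -0.06 against -0.03 over all tested.

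MiRNAs known to be abundant in myeloid cells, the labelled cell type, were measured in all but 1 of 13 cases. Of the 12 tested, 4 rose on the top-100 scale (miR-142-3p, miR-21, miR-16 and miR-24), 2 fell (miR-23a and miR-27a) and 6 did not pass. Over all tested, 11.4% rose and 19.9% fell on that scale. Without 0 min replicate 1 the calls of miR-21, miR-16, miR-24 and miR-23a ended, and those of miR-142-3p and miR-27a held. As deposited, with all 12 samples, 2 rose, miR-142-3p and miR-21, where 10.8% of all tested did. The list's median change was 0.40 on the deposited scale and -0.07 on the top-100 scale, close to 0.43 and -0.03 over all tested. MiR-223, a regulator of granulocyte maturation chosen after its values were seen, had means of 848 and 916 at 0 and 60 min and did not pass (0.18 and -0.29). The summed signal of the list ran from 21308 to 41961 at 0 min and from 32300 to 48768 at 60 min.

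MiR-23a, miR-27a and a copy of miR-24 come from 1 transcript on chromosome 8. MiR-24 rose and the other two fell on the top-100 scale. MiR-27a, which acts on lipid genes, had 9607, 6933 and 7181 at 0 min and 5064, 4672 and 5676 at 60 min on the top-100 scale (-0.61 ± 0.15, adjusted p = 0.0106). MiR-23a had 5597, 5371 and 5231 and 3948, 3704 and 4418 (-0.43 ± 0.12, adjusted p = 0.0195), and neither group overlapped the other. MiR-24, which is also made from a copy on chromosome 13, had 100.0, 108 and 132 and 158, 152 and 133 (0.38 ± 0.13, adjusted p = 0.0419). Their deposited changes were -0.14, 0.04 and 0.85, and none passed. Of 12 top-100 fits that left out 1 sample each, the call of miR-27a held in 12, that of miR-23a in 9 and that of miR-24 in 3. MiR-23b and miR-27b did not pass on either scale, so the list of 5 held 1 rise and 2 falls on the top-100 scale.

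The let-7 family, whose members act on growth genes such as Ras and Hmga2, had 5 falls, 0 rises and 4 members that did not pass on the top-100 scale, where 19.9% of all tested fell, and 0 calls on the deposited scale. Its median change was -0.46 on the top-100 scale, against -0.03 over all tested, and 0.01 on the deposited scale, against 0.43. Let-7b had 5012, 4648 and 3567 at 0 min and 2742, 2653 and 2764 at 60 min on the top-100 scale and fell by 0.68 ± 0.14 (adjusted p = 0.00369). Let-7d, let-7g, let-7i and miR-98 also fell, with changes of -0.65, -0.50, -0.46 and -0.60, although the deposited change of let-7i was 0.01. Without 0 min replicate 1, let-7g (-0.44, adjusted p = 0.0632) and let-7i (-0.42, adjusted p = 0.0848) did not pass, and their calls ended under 6 and 9 of 25 alternatives on that scale. Let-7e (-0.27), let-7c (-0.13), let-7a (-0.07) and let-7f (0.11) did not pass. The printed sequences of let-7a and let-7b differ at A17G and A19G, counted from the 5′ end with the base of let-7a first. How far the probes separate members that differ by 1 to 6 bases is not stated in these sources, so signal may be shared between them.

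Some other seed families held calls in both directions on the top-100 scale. Of the 16 seeds shared by at least 2 matched probes, 3 held both a rise and a fall, all printed above. MiR-29a, one of a family that targets collagen genes, had 2261, 2679 and 2233 at 0 min and 1935, 1712 and 1798 at 60 min on the top-100 scale and fell by 0.39 ± 0.13 (adjusted p = 0.0374). MiR-29c, which differs from it by C10U alone, had 302, 345 and 313 and 475, 441 and 371 and rose by 0.42 ± 0.13 (adjusted p = 0.0292). The deposited change of miR-29a was 0.08 and that of miR-29c 0.89, neither passing. MiR-15b, whose family acts on cell cycle and survival genes such as Bcl2, fell by 0.37 ± 0.12 there, with a deposited change of 0.10, and miR-16 rose by 0.36 ± 0.13. The miR-20a+miR-20b probe fell by 0.69 ± 0.16, and miR-106b rose by 0.44 ± 0.12. The calls of miR-29a and miR-15b ended under 17 and 16 of 25 alternatives on that scale, and those of miR-16 and miR-29c under 14 and 8.

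**Figure D4:**
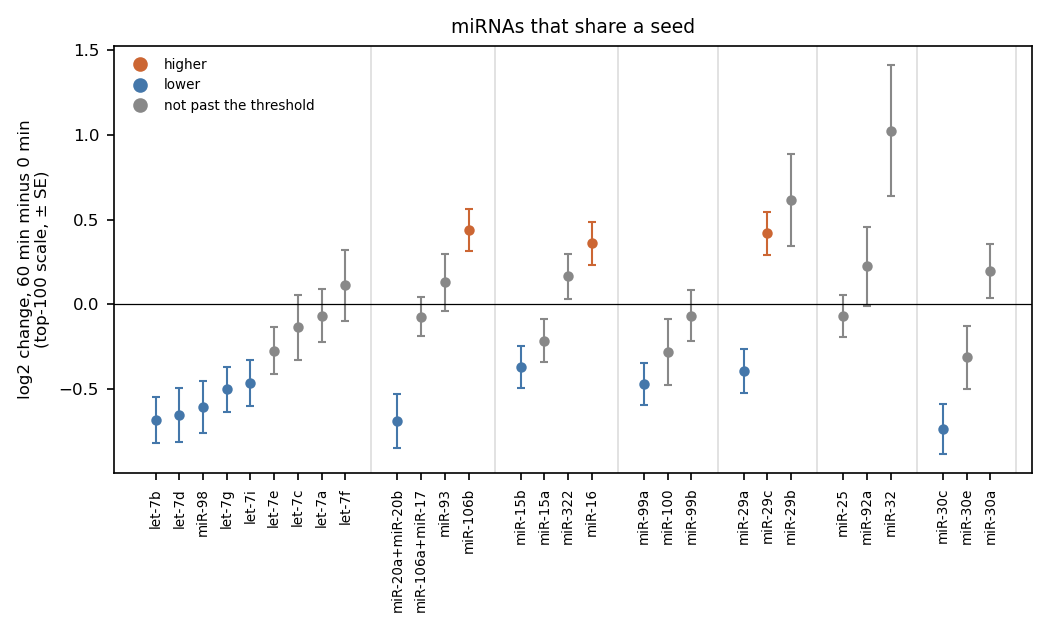
Log2 change at 60 min against 0 min on the top-100 scale with its SE, for the 7 seeds shared by at least 3 tested probes, separated by grey lines. The let-7 members (left) run from -0.68 to 0.11 with 5 falls, and the families of miR-17, miR-15/16 and miR-29 each hold 1 rise (orange) and 1 fall (blue).

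Ratios of 2 miRNAs within a sample need no scaling, so they were set beside these changes. The ratio of miR-29a to miR-29c was 7.48, 7.78 and 7.14 at 0 min and 4.07, 3.88 and 4.84 at 60 min. The ratio of miR-15b to miR-16 was 1.55, 1.35 and 1.2 at 0 min and 0.882, 0.791 and 0.790 at 60 min. The ratio of the miR-106a and miR-17 probe to the miR-20a and miR-20b probe was 0.312, 0.385 and 0.449 at 0 min and 0.596, 0.629 and 0.518 at 60 min. In all 3 pairs, chosen after their values were seen, the groups did not overlap, 0 min replicate 1 included. Such separation was common in these samples. It was shown by 25 of 63 pairs within seed families (39.7%) and by 41.4% of all 8778 pairs of tested miRNAs without a floored sample. Over all 63 pairs, unlike change within a seed family was thus about as frequent as between any 2 miRNAs. This frequency mixes unlike families, since let-7 gave 36 of the 63 pairs and 9 of the 25 that were apart. Pairs within let-7 were apart less often than pairs of any 2 miRNAs, and pairs within the other families more often.

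**Figure D5:**
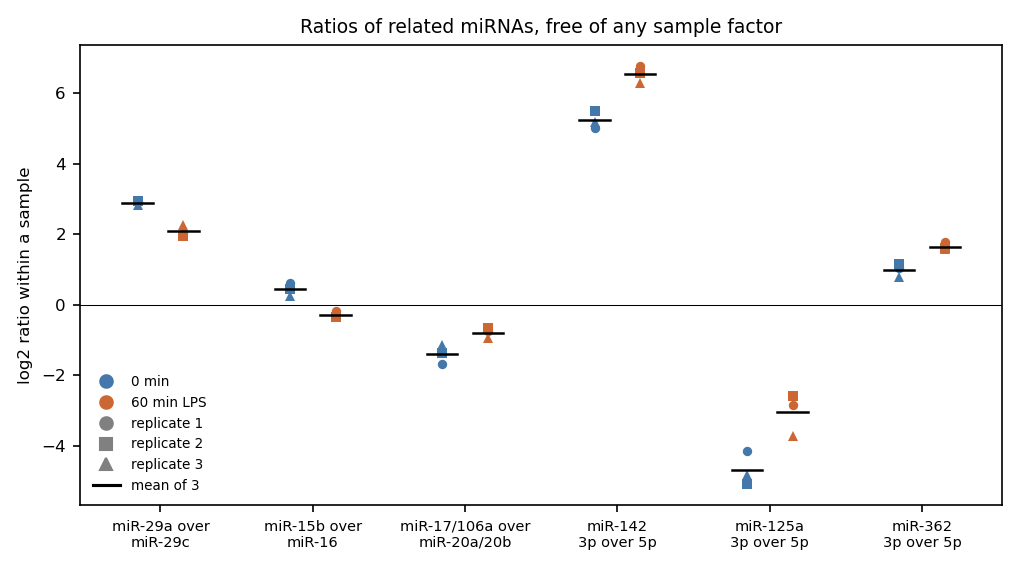
Log2 ratios within a sample for 3 pairs of miRNAs with the same seed and for the 3p over the 5p arm of miR-142, miR-125a and miR-362, with 0 min in blue, 60 min in orange and means as black bars. In each of the 6 ratios, shown because of it, the groups do not overlap.

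Both arms were tested for 7 precursors. Beside miR-142-3p, described above, miR-142-5p did not pass, with changes of 0.38 on the deposited and -0.09 on the top-100 scale. The ratio of the 3p to the 5p signal of miR-142 was 32.6, 45.2 and 36.7 at 0 min and 109, 96.4 and 79.1 at 60 min. The log2 ratio went up by 1.31, with no overlap (exact permutation p = 0.1, two-sided, the smallest possible, adjusted p = 0.233 over 7 precursors). For miR-125a the ratio of the signals was 0.0562, 0.0293 and 0.0350 at 0 min and 0.140, 0.166 and 0.0750 at 60 min, a difference of 1.64 on the log2 scale (exact p = 0.1, adjusted p = 0.233). The groups again did not overlap, but the 3p values at 0 min lay near background, as given above. MiR-125a-5p, the dominant arm, did not pass (0.49 and 0.01 on the deposited and top-100 scales). For miR-362 the ratio was 2.07, 2.24 and 1.73 at 0 min and 3.42, 3.04 and 3.00 at 60 min, also without overlap, a log2 difference of 0.65 (exact p = 0.1, adjusted p = 0.233). Its 3p arm rose on both scales as given above, and miR-362-5p did not pass (0.44 and -0.02). For miR-199a, miR-202, miR-340 and miR-423 the log2 ratio differed by -0.55, -0.17, 0.30 and 0.22, and the groups overlapped. Ratios whose groups did not overlap were thus found for 3 of 7 precursors, beside 41.4% of all pairs of tested miRNAs without a floored sample. Probes of unlike efficiency count the arms, so the ratios compare samples and give no share of the arms.

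The other families follow, beside 11.4% rises and 19.9% falls over all tested miRNAs on the top-100 scale. In the miR-17-92 list 1 of 6 tested fell and 0 rose on the top-100 scale. Its other members did not pass, with miR-19a at 0.42 (adjusted p = 0.0592) and miR-19b at 0.26. In the miR-106b-25 cluster 1 of 3 rose, and miR-93 (0.13) and miR-25 (-0.07) did not pass. In the miR-15/16 family miR-15a (-0.21) and miR-322 (0.17) did not pass. Of the miR-30 family 1 of 5 fell, with miR-30b (0.17), miR-30d (0.26) and miR-30a (0.20) not passing. In the miR-99/100 and miR-125 families 1 of 6 rose, miR-125a-3p, and 1 fell, miR-99a (-0.47, 0.00 on the deposited scale). MiR-125b-5p (0.04) and miR-99b (-0.07) did not pass. MiR-107, which differs from miR-103 by G22C, did not pass (0.21).

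Of the miR-130 and miR-301 family miR-130b fell (-0.53) and miR-301a (-0.02) did not pass. MiR-301b was floored in each 0 min sample and had 49.1, 44.7 and 26.5 at 60 min without passing. MiR-26b (0.06) did not pass beside miR-22. No call fell to miR-191 (0.04) and miR-425 (0.10), to miR-101a (0.50) and miR-101b (0.07), or to miR-221 (-0.21) and miR-222 (0.14). Each 0 min sample of miR-222 was floored.

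MiR-376a and miR-136 were the 2 rises of the Dlk1-Dio3 region on either scale. Over all tested miRNAs 10.8% rose on the deposited and 11.4% on the top-100 scale. The calls of miR-136 ended without some single samples, as given above. Of the region's 41 members on the panel, 28 were at the floor in all 6 samples and 4 were tested. The other 2 tested were miR-539 (0.24), which did not pass, and miR-770-3p, which fell on the top-100 scale (-0.66). The 9 that were above the floor in some sample but not tested had signals of at most 56.6. In the intron cluster of Sfmbt2, a repeated mouse miRNA family, 18 of 31 were tested. On the top-100 scale 3 fell, where 19.9% of all tested did, and 15 did not pass. The median of these 18 was -0.02. MiR-669a fell by 0.58, while miR-669f (0.47) and the probe shared by miR-466a-3p and miR-466b-3-3p (-0.24) did not pass.

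Markers of other cell types were low or at the floor, except in the lymphoid list and the list of mesenchymal and endothelial markers. The muscle, liver and red cell lists had 0 tested members. Epithelial markers had 2 of 7 tested, miR-200b and miR-200c, with a highest signal of 56.6 at 0 min and 38.1 at 60 min. Both fell on the top-100 scale (-0.61 and -0.64). At 60 min each count of both lay below the highest negative control of its sample. With 1 common floor for all samples both calls ended by limma (-0.07, adjusted p = 0.497, and -0.13, adjusted p = 0.248). The summed signal of this list ran from 151 to 202 at 0 min and from 146 to 172 at 60 min, where 7 floored members would give 140. Of the neural markers only miR-128 was tested, with 20, 34.6 and 22.1 at 0 min and 42.8, 47.3 and 22.1 at 60 min, and it did not pass. Of the 3 lymphoid markers only miR-181a was tested, with 507, 280.4 and 249 at 0 min and 374, 356 and 308 at 60 min, highest in 0 min replicate 1. The summed signal of that list ran from 289 to 547 at 0 min and from 348 to 419 at 60 min, and miR-181a fell on the top-100 scale (-0.40, beside 0.07 on the deposited scale). That call held in only 1 of 12 fits that left out 1 sample each, and it ended without 0 min replicate 1 (-0.35, limma adjusted p = 0.145). Mesenchymal and endothelial markers had 3 of 8 tested. MiR-199a-3p had 953, 463 and 379.5 at 0 min and 539, 527 and 494 at 60 min and fell on the top-100 scale (-0.56), and miR-126-3p fell as given above. MiR-199a-5p did not pass (-0.01). This list's summed signal ran from 702 to 1472 at 0 min and from 790 to 982 at 60 min, highest in 0 min replicate 1, and the part of such cells in the falls was not tested.

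The falls and rises were also set against sequence. The median GC content of the matched miRNAs without a floored sample was 44.2% for 14 rises, 43.5% for 25 falls and 42.5% for the 56 that did not pass on the top-100 scale. Across these 95 probes the rank correlation of GC content with the top-100 change was -0.00219, as a description over miRNAs that share samples.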

How the data were processed

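MiRNAs were measured on a NanoString panel of 626 probes, 566 of them for mouse miRNAs, in 12 samples. The deposited signal is not a count: per its values, the authors' table holds counts times 1 factor per sample (geometric mean of 4 housekeeping mRNAs equal in all samples), with a floor of 20. Software and normalization steps are not given in the sources used here. MiRNAs were tested where the mean over 12 samples exceeded 30.5 (the negative controls' mean plus 2 SD, in raw counts and so an unlike unit), which kept 166 and left out 400. Log2(signal + 1) was fitted by limma (version 3.58.1, R 4.3.3) with 1 mean per time point, 8 residual degrees of freedom. The deposited fit pooled all residuals, so its very small p values overstate what 3 against 3 samples can show. Top-100 scaling used the 100 most abundant miRNAs over the 12 samples, with 2 floored values among them. Single values were tested by exact permutation in Python 3.11.15. The fit was tested on simulated data.

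Named miRNAs are all deposited calls, up to 15 rises and 15 falls on the top-100 scale without a floored sample, LPS-induced miRNAs above the floor, up to 4 most abundant tested members of each list, and the 5 most abundant. Others are said to be chosen after their values were seen, or stand in a count they complete. The samples, lists and scales were chosen with earlier results of these data known. Alternatives covered pseudocount, filter, floor, scaling, samples, replicate block and variance model.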

Additional observations from a re-analysis of the deposited data

How the results depend on the processing

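On the deposited scale the 18 rises became 0 by limma with no filter (45 higher and 0 lower at an unadjusted p under 0.05), 10 among miRNAs above the floor in all 12 samples, 10 with the 6 samples of 0 and 60 min alone, 5 with both of these (an alternative chosen after seeing the data), 2 with a common floor, 39 with a replicate block, 7 under ligation control scaling and 30 under summed signal scaling. The deposited fits with no filter and with a common floor no longer shared 1 variance over all miRNAs. Their counts thus do not show the filter or the floor alone. MiR-142-3p, far above the floor, kept its change of 1.70 with a common floor, but its adjusted p by limma was 0.158. The 0 falls became 62 under ligation control scaling and 16 under summed signal scaling. On the top-100 scale the 19 rises and 33 falls became 7 and 2 with no filter, 12 and 13 with the 6 samples alone, 30 and 16 with the summed signal as reference, and 9 and 17 when rescaled without 0 min replicate 1 (chosen after seeing the data). The replicate block gave 20 rises and 29 falls there. Same-numbered samples of 0 and 60 min correlated at 0.07 to 0.09 in their deviations from the group means, and none correlated best with its own number, so the numbers were not taken as pairs.

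Leaving out 1 sample gave 7 to 41 rises on the deposited scale, and 9 to 21 rises and 17 to 34 falls on the top-100 scale. Omitting a single 0 min sample gave 37, 10 and 9 deposited rises for replicates 1, 2 and 3, and omitting a 60 min sample gave 10, 7 and 41. On the top-100 scale the counts of rises and falls were 9 and 17 when 0 min replicate 1 was omitted, 10 and 21 for 60 min replicate 1, and 9 and 17 for 60 min replicate 2.

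Of 4124 alternative values of single miRNAs, 3574 kept their side of the threshold, 413 no longer passed, 121 newly passed and 16 turned. A further change of sign occurred in 156 values that passed in neither setting. Under ligation control scaling let-7i (-0.82), miR-15a (-0.57), miR-15b (-0.72), miR-181a (-0.75), miR-221 (-0.56), miR-23a (-0.78), miR-23b (-0.67), miR-29a (-0.75), the miR-466a-3p+miR-466b-3-3p probe (-0.59) and miR-99a (-0.82) passed as lower where the deposited change was above 0. The relative falls of let-7i, miR-15b, miR-181a, miR-23a, miR-29a and miR-99a had deposited changes of 0.00797, 0.10, 0.0701, 0.0439, 0.0774 and 0.00252. The cause was not tested. The planned tests on recovered counts were not run, because the floor kept too few values whole.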

Other observations

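The panel also holds 33 probes for miRNAs of mouse herpesviruses, which belong to no comparison above. Of these, 24 were at the floor in all 6 samples and 9 were above it in at least 1. Their highest signal was 65.7 at 0 min and 38.1 at 60 min, and their highest count was 29 at 0 min and 34 at 60 min. The highest negative control of the 6 samples ran from 26 to 36 counts.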
